A study of Arabidopsis thaliana with 12 samples.

Results

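The 87 plastid-encoded genes of the deposited expression table of Arabidopsis thaliana seedlings were described, out of 21882 genes in all. They were taken as every row whose gene identifier begins with ATCG, the prefix of the plastid chromosome, and 38 mitochondrial and 21757 nuclear genes made up the rest. By the descriptions in the table, 14 of the 87 were tRNA genes. The table gave a symbol to all others except ATCG00590, and 72 of them were matched by symbol to the plastid chromosome of the RefSeq assembly TAIR10.1, a circle of 154478 bases.

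The plastid chromosome of land plants encodes a core of the photosynthetic complexes and the parts of the plastid's own gene expression machinery, while most subunits of the same complexes are encoded in the nucleus. It is transcribed by a bacterial-type polymerase, whose core subunits are the plastid rpo genes and whose sigma factors come from the nucleus, and by a phage-type polymerase encoded in the nucleus. In leaves the bacterial-type enzyme is known for transcribing photosynthesis genes, and the phage-type enzyme for transcribing genes such as rpoB, accD and clpP. Many plastid genes are transcribed together in polycistronic units, which resemble bacterial operons.

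RNA was sequenced from leaf material of cat2-2 (catalase2-2) seedlings, which carry a mutation in the gene of the peroxisomal catalase CAT2, in 4 groups of 3 libraries. Stress + Pakerine and Stress seedlings were stressed for 2 days by sealing their plates and lighting them for 24 h a day, with 10 µM of the m-sulfamoyl benzamide pakerine in Stress + Pakerine and with solvent in Stress. Pakerine seedlings received the same dose without stress, and DMSO seedlings solvent alone. All groups grew in liquid medium that was replaced on day 7, and then stayed for 4 days in days of 16 h of light. The non-stressed seedlings were harvested at that time and the stressed ones after the stress, so that the stress cannot be told apart from age and day length. Several seedlings shared a well and their leaves were pooled. All groups were cat2-2 and none was wild type. CAT2 (AT4G35090) averaged 108 CPM in Stress + Pakerine and 76.1 CPM in Stress. Pakerine had 37.2 CPM and DMSO 19.5 CPM. The 12 libraries held between 28472236 and 33512708 counted reads. The title of 6 of the 12 samples names another group than their treatment fields do. Samples titled as Pakerine carry the fields of Stress, and samples titled as Stress those of Pakerine. No column holds a single sample, and the groups here are those that head the columns of the table, where RGCL was read as the stress. The leaf label was set beside RBCS genes, which encode the small subunit of Rubisco, and beside markers of root cells. The 4 RBCS genes summed to 15951 CPM in Stress + Pakerine, 14469 in Stress, 16960 in Pakerine and 13921 CPM in DMSO. The 4 root markers summed to 134 CPM in Stress + Pakerine, 20.4 in Stress, 157 in Pakerine and 26.4 CPM in DMSO. These values do not show that the material was free of root RNA.

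The table gives a mean over the libraries of each group in counts per 1000000 counted reads (CPM). A read was worth 0.0298 to 0.0351 CPM, depending on the library, and each mean is a sum of whole reads from 3 libraries of unequal size. This allowed the means of 82 of the 87 plastid genes to be resolved into the reads of the single libraries in all 4 groups. For 76 of them no other set of reads gave the listed mean. For 6 (atpA, rpoB, psbD, psaA, psaJ and psbB) the set was the only one in which every library lay within 1.5-fold of the mean, so that a wider spread would have been missed. The other 5 (psbA, psbC, psaB, atpB and rbcL) could not be resolved in every group and have group means only. Libraries were numbered by their total reads, the largest as library 1, since a mean does not show which replicate each belongs to. Nothing in the sources ties the replicates to separate cultures beyond their being called biological replicates, so that the tests below measure the spread between these libraries.

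Plastid transcripts made up a small share of the counted reads, and it differed little between the groups. The 87 genes summed to 0.0504% of all CPM in Stress + Pakerine, 0.0517% in Stress, 0.0510% in Pakerine and 0.0505% in DMSO. In these bulk samples, fewer plastids or plastid-rich cells and less RNA per plastid cannot be told apart. The RNA selection is not given in the sources used here, so the values hold for counted reads, not for plastid RNA in the leaf. A single gene, psbA (ATCG00020), held between 25.1% and 31.9% of the plastid sum. It encodes D1, the reaction centre protein of photosystem II that is replaced most often in the light. It averaged 161 CPM in Stress + Pakerine, 153 in Stress, 144 in Pakerine and 126 CPM in DMSO. Of the 87 genes, 50 averaged at least 1 CPM over the groups, 11 of them at least 10 CPM, and 37 lay below 1 CPM. The depth behind a value is low: the 45 genes fitted below had between 15 and 796 reads in a library.

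Levels were compared between genes per length of coding sequence. The highest was that of psbA with 137 CPM per kb, ahead of psaJ with 86.5 CPM per kb, a small subunit of photosystem I. They were followed by rpl32 with 39.7 CPM per kb, a protein of the large ribosomal subunit, psbJ with 37.7 CPM per kb, a small subunit of photosystem II, and rbcL with 31.0 CPM per kb, the large subunit of Rubisco. At the other end, ycf1 had 0.178 CPM per kb and ndhF 0.193 CPM per kb. The 10 ndh genes, which encode the NADH dehydrogenase-like complex, ranged up to 4.84 CPM per kb for ndhD. By group means, psaJ averaged 10.9 CPM in Stress + Pakerine, 13.0 in Stress, 10.4 in Pakerine and 12.4 CPM in DMSO. The gene rpl32 averaged 4.65 CPM in Stress + Pakerine, 9.18 in Stress, 4.82 in Pakerine and 6.61 CPM in DMSO, and psbJ 4.32 CPM in Stress + Pakerine, 5.49 in Stress, 4.53 in Pakerine and 4.22 CPM in DMSO. These small subunits were thus far below rbcL and psbC in CPM before division by length. The division did not take the read length of 75 bases into account, so the levels per kb of such short genes are uncertain. The gene rbcL (ATCG00490) averaged 43.8 CPM in Stress + Pakerine, 38.9 in Stress, 49.0 in Pakerine and 47.1 CPM in DMSO. The gene psbC, an inner antenna protein of photosystem II, averaged 33.0 CPM in Stress + Pakerine, 31.9 in Stress, 31.9 in Pakerine and 28.3 CPM in DMSO. The gene atpB, a catalytic subunit of the plastid ATP synthase, averaged 17.4 CPM in Stress + Pakerine, 17.9 in Stress, 20.0 in Pakerine and 19.1 CPM in DMSO.

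**Figure D1:**
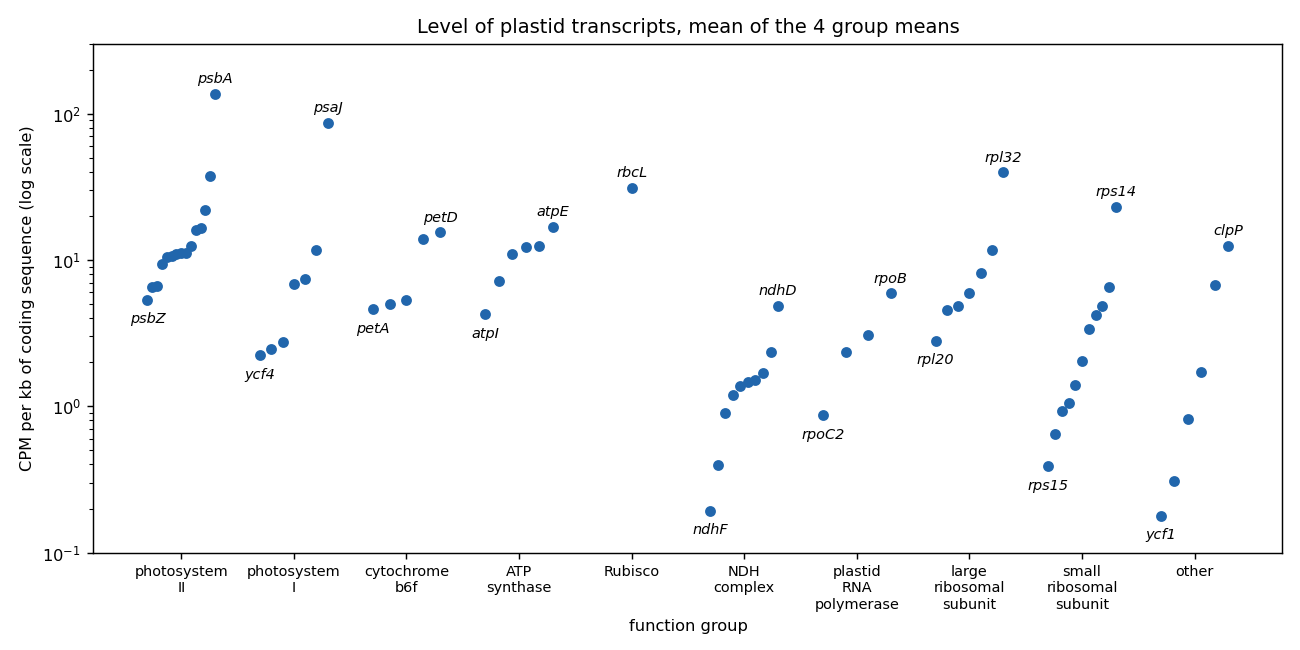
Level of 72 plastid genes in CPM per kb of coding sequence (log axis), each point the mean of the 4 group means of a gene, sorted within function groups. psbA and psaJ lie at the top with 137 and 86.5 CPM per kb, and ycf1 at the bottom with 0.178 CPM per kb.

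A promoter of psbA is a textbook case of the bacterial type, with the hexamers TTGACA and TATACT. The exact hexamer TTGACA was searched on both strands in the 250 bases before the start codon of 71 plastid genes (rps12, whose exons lie apart, was left out), and 10 of the 71 windows, or 14.1%, held it. For TATAAT, searched in the same way, 31 windows or 43.7% held it. A match is a description of the letters only. Windows of 30 bases from TTGACA on are shown for psbA, the most abundant member, and for rpl32 and rpl14, whose levels are described below, read from RefSeq TAIR10.1 on the coding strand with the hexamers named above in capitals.
psbA, chrPltd:1530-1559, minus strand: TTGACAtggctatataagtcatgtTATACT
rpl32, chrPltd:113407-113436, plus strand: TTGACAtccaattataccactgaaattttt
rpl14, chrPltd:81098-81127, minus strand: TTGACAaacaatatttttttacttcgtcct
In psbA the hexamers are 18 bases apart and TTGACA begins 115 bases before the start codon, against 42 bases for rpl32 and 63 bases for rpl14.

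Plastid genes were high or low together in libraries of the same group. The 76 genes resolved without a window summed to 163, 122 and 125 CPM in the Stress + Pakerine libraries, 151, 139 and 174 CPM in the Stress libraries, 172, 133 and 166 CPM in the Pakerine libraries and 158, 201 and 142 CPM in the DMSO libraries. The 4 groups overlapped, and the widest span was that within DMSO. DMSO library 2 stood highest, and 38 of 45 plastid genes with at least 1 CPM lay above their group mean in it, against 6 of 45 in DMSO library 3. In Stress + Pakerine library 1 the number was 43 of 45.

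**Figure D2:**
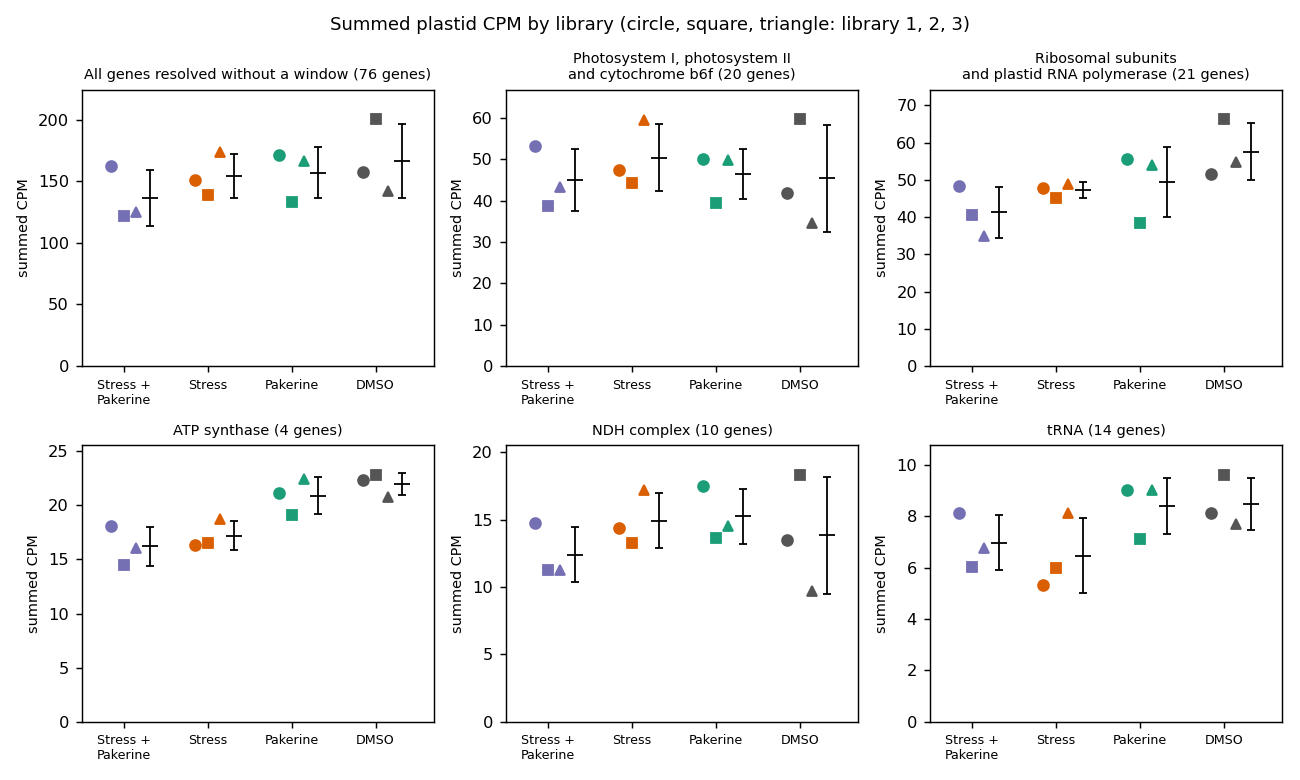
Summed CPM of plastid genes in each of the 12 libraries, for all 76 genes resolved without a window and by function, with the mean and SD of 3 libraries beside the points. The sums of all genes overlap between groups, while the 4 ATP synthase genes of both stressed groups lie below those of both non-stressed groups.

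The stress was compared with the DMSO control by limma on log2(CPM + 0.1), fitted to the 8602 genes that were resolved in all groups and averaged at least 1 CPM, of which 45 are plastid genes. Adjusted p-values are those of Benjamini and Hochberg over all 8602. Of the 45 plastid genes, 11 fell and 1 rose in Stress. The share that fell was near that of all genes fitted, 26.2% of which were lower. Among all genes fitted 14.3% were higher. Those that fell encode ribosomal proteins, subunits of ATP synthase and of the plastid RNA polymerase, and a small subunit each of photosystem II and of the NDH complex. The median difference was -0.21 over the 45 plastid genes and -0.13 over all genes fitted, on the log2 scale. On the group means, with the 50 plastid genes of at least 1 CPM, 9 were at least 1.5-fold lower and 2 at least 1.5-fold higher in Stress, against 8.71% and 9.6% of all genes, and none was 2-fold higher or lower, against 4.23% and 2.2% of all genes. In 14 of the 45 plastid genes all Stress libraries were below all DMSO libraries, and in 1 above them, against 32.6% and 17.4% of all genes fitted.

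Several of the 11 genes belong to the long ribosomal unit that runs from rpl23 to rpoA. The gene rpl14 (ATCG00780), a protein of the large subunit, had 2.34, 2.20 and 2.11 CPM in the Stress libraries, against 4.56, 3.71 and 3.86 CPM in the DMSO libraries. All Stress libraries lay below all DMSO libraries. Its log2 difference was -0.83 ± 0.17 (SE), with an adjusted p of 0.00152 by limma. The gene rpl16 (ATCG00790) had 4.50, 3.42 and 3.95 CPM in the Stress libraries, against 6.10, 6.59 and 6.18 CPM in the DMSO libraries. These ranges did not overlap either, and the log2 difference was -0.66 ± 0.15 (SE) (limma, adjusted p = 0.00279). The gene rps3 (ATCG00800), a protein of the small subunit, had 4.08, 3.52 and 4.31 CPM in the Stress libraries, against 6.23, 6.0 and 4.81 CPM in the DMSO libraries. Again no library of one group reached into the other, and its log2 difference was -0.50 ± 0.16 (SE) (limma, adjusted p = 0.0247). It was not past the threshold in 4 of 18 alternatives, among them the fit without DMSO library 2, with -0.46 (limma, adjusted p = 0.0735). In the same unit, rpl22 fell by 0.72 on the log2 scale (limma, adjusted p = 0.0134). The last gene, rpoA, did not pass, with -0.42. On the group means all 7 members of this unit with at least 1 CPM were lower in Stress, with log2 ratios of -0.84 to -0.41.

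Neighbours in this unit overlap. The reading frames of rpl22 and rps3 share 16 bases, chrPltd:83467-83482 on the minus strand of RefSeq TAIR10.1, printed with the start codon of rps3 and the stop codon of rpl22 in capitals to show how close the reads of both lie.
rpl22 and rps3: ATGggacaaaaaaTAA
Reads across this point could be given to either gene or dropped. The same holds for the 53 bases shared by psbD and psbC and the 4 bases shared by atpB and atpE. The counting is not stated to use strand, so that reads of psbN, which lies antisense within the psbB unit, cannot be told from reads of that unit.

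All 4 core genes of the plastid RNA polymerase had negative differences, and 1 passed. The gene rpoB (ATCG00190), which encodes its beta subunit, had 15.8, 12.6 and 17.6 CPM in the Stress libraries, against 23.6, 21.6 and 20.9 CPM in the DMSO libraries. Every Stress library was below every DMSO library, with a log2 difference of -0.54 ± 0.11 (SE) (limma, adjusted p = 0.00158). The genes rpoC1 and rpoC2 of the same unit did not pass. The gene rpoC2 had 2.34, 2.66 and 1.91 CPM in the Stress libraries, against 2.23, 4.59 and 6.22 CPM in the DMSO libraries, and DMSO library 1 lay within the range of Stress. Its log2 difference was -0.78 ± 0.33 (SE) with an adjusted p of 0.0681 by limma.

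Genes of the plastid ATP synthase, which makes ATP from the proton gradient across the thylakoid membrane, come next. All 5 fitted atp genes had negative differences and 3 passed. The gene atpA (ATCG00120) had 8.10, 7.33 and 9.87 CPM in the Stress libraries, against 12.5, 13.2 and 12.4 CPM in the DMSO libraries. The ranges were apart, and the log2 difference was -0.59 ± 0.13 (SE) (limma, adjusted p = 0.00244). The gene atpI had a difference of -0.67 ± 0.16 (SE) and atpE one of -0.31 ± 0.11 (SE) (limma, adjusted p = 0.00364 and 0.0337). The genes atpF and atpH had -0.21 and -0.40 and did not pass. Summed over the 4 atp genes resolved without a window, the libraries had 16.3, 16.5 and 18.7 CPM in Stress, against 22.3, 22.8 and 20.8 CPM in DMSO.

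Photosynthesis genes were mixed. Of 11 fitted psb genes, 1 passed the test: psbK (ATCG00070), a small subunit of photosystem II, had 1.26, 1.25 and 1.71 CPM in the Stress libraries, against 1.97, 2.99 and 1.86 CPM in the DMSO libraries. The highest Stress library was below the lowest DMSO library, and the log2 difference was -0.64 ± 0.22 (SE) (limma, adjusted p = 0.0341). This call was lost in 4 of 18 alternatives, and without DMSO library 2 the difference was -0.43 (limma, adjusted p = 0.153). Its coding sequence of 186 bases, chrPltd:7017-7202 on the plus strand of RefSeq TAIR10.1, is printed with start and stop codon in capitals because it is the only psb gene that passed with all libraries in the fit.
psbK: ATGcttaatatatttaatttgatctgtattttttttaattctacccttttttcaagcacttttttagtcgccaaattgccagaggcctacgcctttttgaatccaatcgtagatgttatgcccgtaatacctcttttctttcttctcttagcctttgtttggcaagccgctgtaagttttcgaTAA
Its neighbour psbI, transcribed with it, had 1.08, 0.788 and 1.65 CPM in the Stress libraries, against 0.983, 2.69 and 0.632 CPM in the DMSO libraries. The ranges overlapped widely, and the difference was -0.09 ± 0.42 (SE) with an adjusted p of 0.879 by limma. The genes of the psbB unit had positive log2 ratios on the group means, 0.13 to 0.66 over psbB, psbT, psbH, petB and petD. In the fit, petB (ATCG00720), cytochrome b6 of the complex that joins the photosystems, had 9.60, 8.74 and 11.6 CPM in the Stress libraries, against 7.54, 9.68 and 5.80 CPM in the DMSO libraries. The ranges overlapped through DMSO library 2, and the difference was 0.40 ± 0.17 (SE) (limma, adjusted p = 0.0822). No gene of photosystem I passed.

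The only plastid gene that rose in Stress was rps14 (ATCG00330), a protein of the small ribosomal subunit that is transcribed together with psaA and psaB of photosystem I. It had 8.01, 9.66 and 10.5 CPM in the Stress libraries, against 6.06, 8.50 and 6.18 CPM in the DMSO libraries. DMSO library 2 lay within the range of Stress, and the other DMSO libraries below it. The log2 difference was 0.45 ± 0.17 (SE) (limma, adjusted p = 0.0479). The call was lost in 9 of 18 alternatives, among them 8 that each leave out 1 library. The first 120 bases of its coding sequence, chrPltd:37121-37240 on the minus strand of RefSeq TAIR10.1, are shown 5′ to 3′ with the start codon in capitals because its direction is opposite to that of the other ribosomal genes that passed.
rps14: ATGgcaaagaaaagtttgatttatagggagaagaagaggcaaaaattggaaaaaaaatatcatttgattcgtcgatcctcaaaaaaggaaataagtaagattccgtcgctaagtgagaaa
On the group means the unit had log2 ratios of 0.19 to 0.44 for psaA, psaB and rps14. The gene psaA, a reaction centre protein of photosystem I, had 18.6, 16.0 and 24.3 CPM in the Stress libraries, against 15.9, 20.1 and 15.7 CPM in the DMSO libraries. These overlapped, and the difference of 0.18 ± 0.17 (SE) did not pass (limma, adjusted p = 0.43). Its partner psaB (ATCG00340), for which Stress libraries could not be resolved, averaged 25.3 CPM in Stress + Pakerine, 33.0 in Stress, 18.3 in Pakerine and 26.0 CPM in DMSO.

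Without DMSO library 2, 7 plastid genes were higher and 6 lower in Stress, in place of 1 and 11, against 13.2% and 24.1% of all genes fitted. Among the calls lost were those of psbK and rps3, of atpE with -0.31 (limma, adjusted p = 0.0719) and of ndhJ with -0.60 (limma, adjusted p = 0.0852). The 7 were rps14, cemA, psbJ, psbT, petB, rpl32 and ndhD, and psbT, a small subunit of photosystem II, had a log2 difference of 1.51. The median over the plastid genes on the group means was -0.14, and 0.04 without that library, so that its sign rests on it. Scaling by the median ratio over nuclear genes, under which the median of all genes was -0.02 in place of -0.13, left 6 plastid genes lower (atpA, atpI, rpoB, rpl14, rpl16 and rpl22) and made 2 higher (rps14 and petB). Of all 8602 genes fitted, 1567 were lower and 1677 higher under that scaling. Over all genes 35.3% of calls were higher in Stress as fitted and 51.7% under that scaling.

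**Figure D3:**
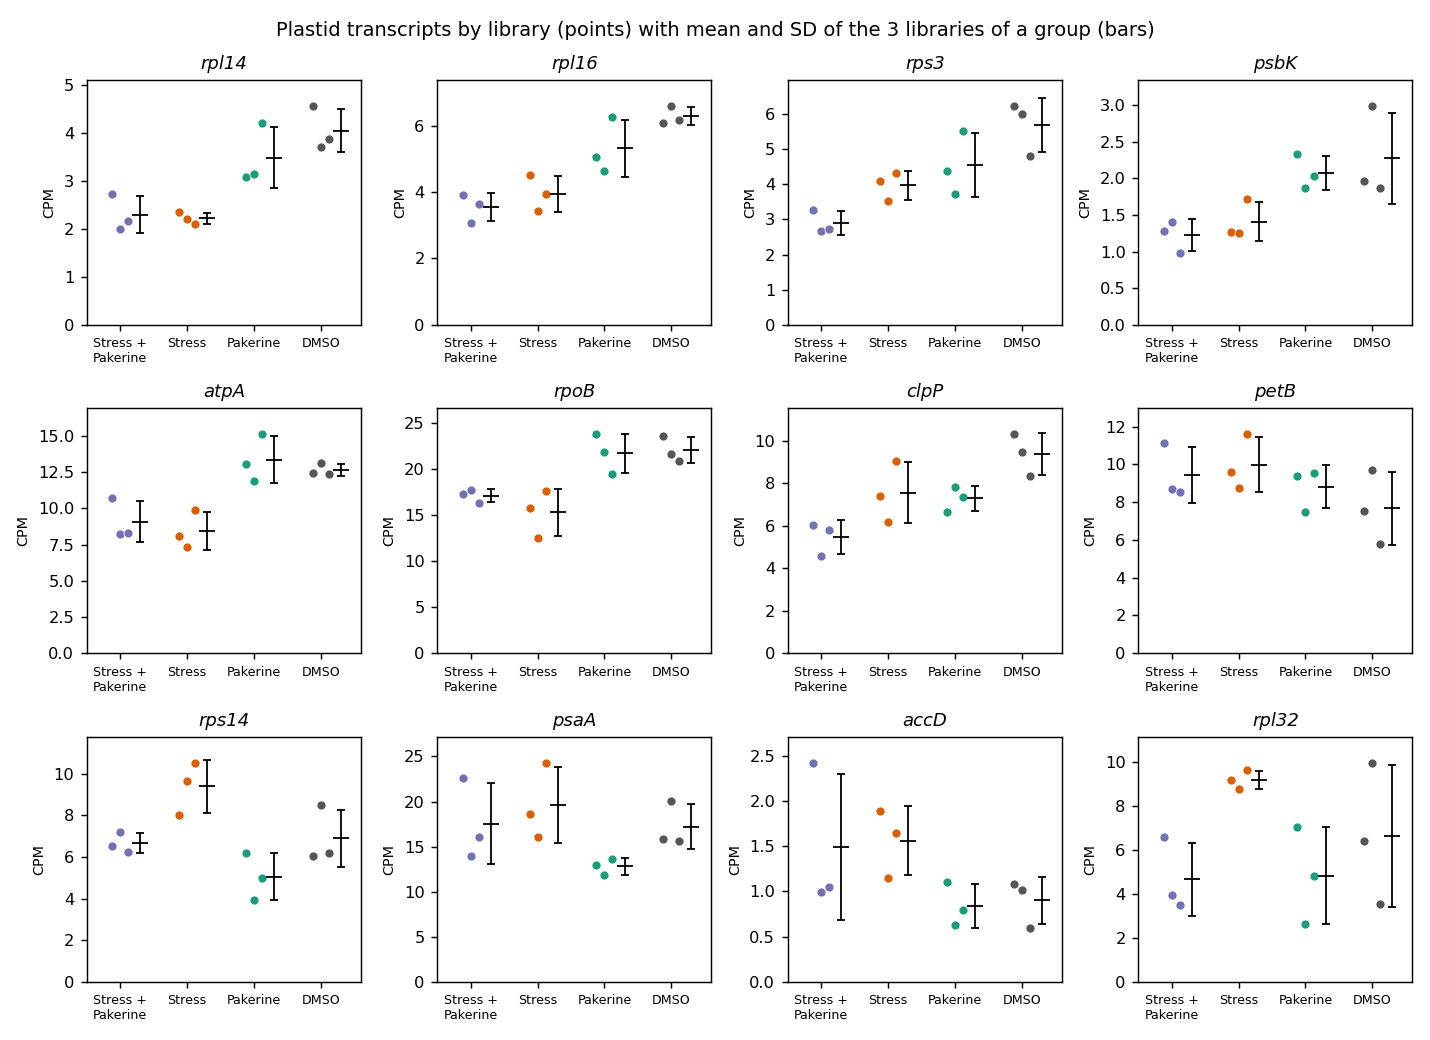
CPM of 12 plastid genes in each library (points, library 1 to 3 from left to right) by group, with the mean and SD of 3 libraries. The genes rpl14, rpl16, rps3, psbK, atpA and rpoB are lower in both stressed groups, clpP is lowest in Stress + Pakerine, and rpl32 lies between 8.77 and 9.61 CPM in Stress but varies widely between libraries of the other groups.

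None of the 4 fitted genes with other functions passed in Stress. The gene accD (ATCG00500), a subunit of the acetyl-CoA carboxylase that starts fatty acid synthesis, had 1.89, 1.15 and 1.65 CPM in the Stress libraries, against 1.08, 1.02 and 0.597 CPM in the DMSO libraries. All Stress libraries lay above all DMSO libraries, yet the difference of 0.75 ± 0.34 (SE) had an adjusted p of 0.0922 by limma. The gene matK (ATCG00040), a splicing factor encoded within the intron of a tRNA gene, had 1.89, 1.22 and 2.01 CPM in the Stress libraries, against 2.98, 4.95 and 1.97 CPM in the DMSO libraries. These overlapped at the low end of DMSO, and the difference was -0.85 ± 0.34 (SE) (limma, adjusted p = 0.0582). Of the NDH genes, ndhJ fell by 0.63 on the log2 scale (limma, adjusted p = 0.0407), a call that 9 of 18 alternatives did not keep. The 14 tRNA rows summed to 5.31, 5.98 and 8.13 CPM in the Stress libraries, against 8.13, 9.61 and 7.69 CPM in the DMSO libraries. A single tRNA row, ATCG00090 for serine, reached 1 CPM and did not pass.

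The stress effect was compared again among pakerine-treated seedlings. The means compared come from libraries that the comparison above did not use. The estimate of the spread is shared, since all groups are in one model, so the 2 comparisons are not independent. Of the 45 plastid genes, 8 fell in Stress + Pakerine relative to Pakerine and 0 rose, against 17.9% and 13.5% of all genes fitted. At an unadjusted p under 0.05 there were 14 plastid genes in either direction. Limma with voom weights also called 0 higher and 7 lower, against 1192 and 1636 of all genes fitted. The median difference was -0.23 over the plastid genes and -0.08 over all genes fitted. The 8 were psbK, rps3, rpl14, rpl16, atpA, atpE, rpoB and clpP, and 7 of them, all but clpP, had also fallen in Stress against DMSO. These 7 are 87.5% of the plastid genes lower with pakerine and 63.6% of the 11 lower without it. The overlap was not counted over all genes fitted, so it is not known whether plastid genes differ in it.

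For rps3 the libraries had 3.28, 2.68 and 2.74 CPM in the Stress + Pakerine libraries, against 4.39, 3.73 and 5.51 CPM in the Pakerine libraries. The groups did not overlap, and the log2 difference was -0.62 ± 0.16 (SE) (limma, adjusted p = 0.0106). For psbK they had 1.29, 1.4 and 0.981 CPM in the Stress + Pakerine libraries, against 2.33, 1.87 and 2.03 CPM in the Pakerine libraries. Here too the groups were apart, with a difference of -0.73 ± 0.22 (SE) (limma, adjusted p = 0.0231). For rpl14 they had 2.73, 1.99 and 2.17 CPM in the Stress + Pakerine libraries, against 3.07, 3.14 and 4.21 CPM in the Pakerine libraries. The highest stressed library was below the lowest of Pakerine, and the difference was -0.58 ± 0.17 (SE) (limma, adjusted p = 0.0194). For atpA they had 10.7, 8.24 and 8.32 CPM in the Stress + Pakerine libraries, against 13.0, 11.9 and 15.1 CPM in the Pakerine libraries. The groups were apart, and the difference was -0.55 ± 0.13 (SE) (limma, adjusted p = 0.00496). For rpoB they had 17.3, 17.7 and 16.3 CPM in the Stress + Pakerine libraries, against 23.8, 21.9 and 19.5 CPM in the Pakerine libraries. The groups did not overlap, and the difference was -0.34 ± 0.11 (SE) (limma, adjusted p = 0.0299). The genes rpl16 and atpE had differences of -0.56 and -0.39 (limma, adjusted p = 0.0101 and 0.012).

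The gene clpP (ATCG00670, PCLPP in the table), the plastid-encoded subunit of the Clp protease, had 6.03, 4.57 and 5.79 CPM in the Stress + Pakerine libraries, against 6.65, 7.84 and 7.34 CPM in the Pakerine libraries. The groups did not overlap, and the difference was -0.41 ± 0.15 (SE) (limma, adjusted p = 0.0454), a call that 11 of 18 alternatives did not keep. In the psaA unit the group means were higher, with log2 ratios of 0.39 to 0.47. The gene psaA had 22.6, 14.0 and 16.0 CPM in the Stress + Pakerine libraries, against 13.0, 11.8 and 13.6 CPM in the Pakerine libraries. All stressed libraries were above all others, with a difference of 0.43 ± 0.17 (SE) that did not pass (limma, adjusted p = 0.0692). Of the 50 plastid genes on the group means, 3 were at least 1.5-fold lower and 1 was at least 1.5-fold higher, against 5.83% and 9.28% of all genes. None was 2-fold higher or lower, against 4.39% and 1.17% of all genes. All stressed libraries were below all others in 12 of the 45 and above them in 2, against 27.1% and 18.4% of all genes fitted. The gene 1.5-fold higher was accD, with 2.42, 0.996 and 1.05 CPM in the Stress + Pakerine libraries, against 1.10, 0.622 and 0.793 CPM in the Pakerine libraries. Library 1 of Stress + Pakerine stood above all others, while the other 2 lay within the range of Pakerine. Over all genes, 43.1% of calls were higher as fitted and 54.2% under scaling by the median ratio, where psaA rose and 7 plastid genes fell. Under that scaling 1431 of all 8602 genes fitted rose and 1210 fell.

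**Figure D4:**
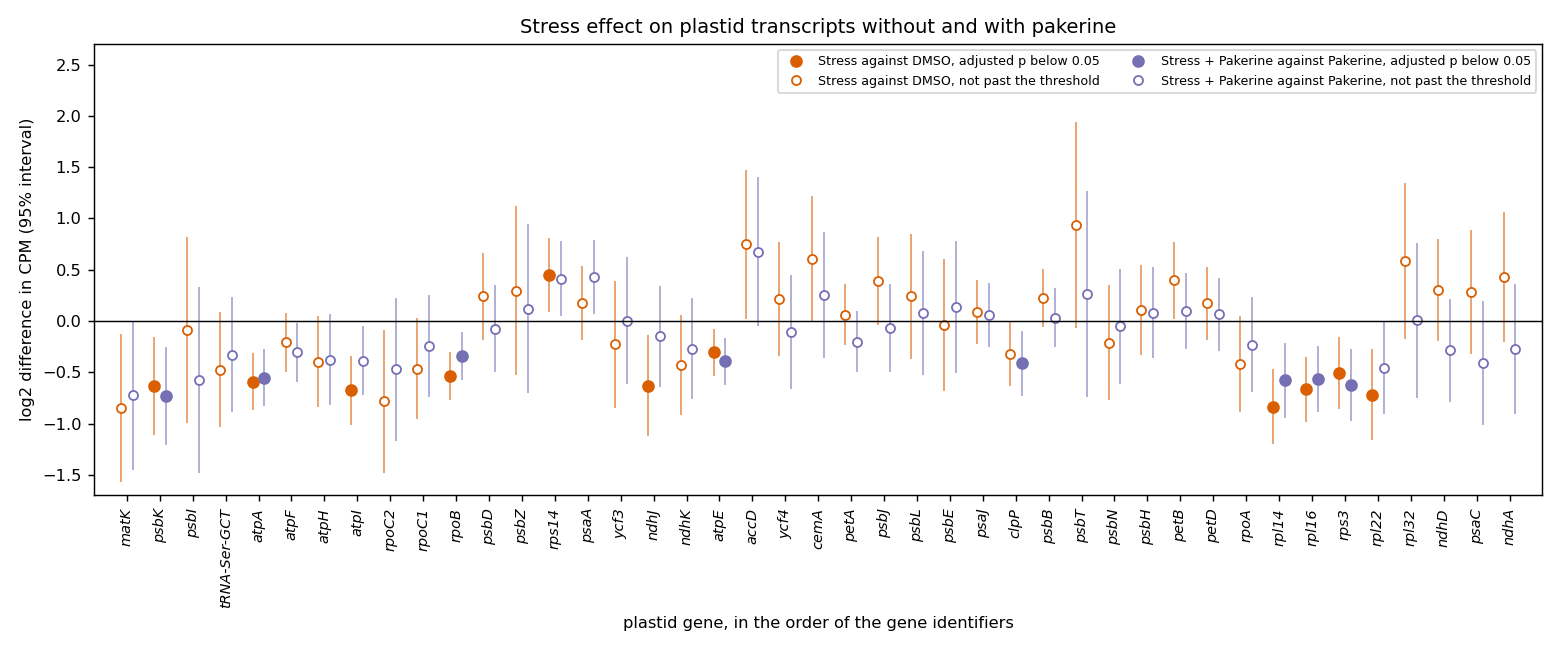
Log2 difference in CPM with its 95% interval for 43 of the 45 fitted plastid genes in the order of their identifiers, for Stress against DMSO (orange) and Stress + Pakerine against Pakerine (purple). Filled points have an adjusted p below 0.05 by limma: 11 without pakerine, of which rps14 alone is above 0, and 8 with pakerine, all below 0.

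The stress effect did not differ detectably with and without pakerine. In the test of that difference by limma, 0 of 45 plastid genes passed, against 4 of the 8602 genes fitted, or 0.0465%, all in the positive direction. At an unadjusted p under 0.05 there were also 0 plastid genes, and the lowest unadjusted p was 0.0974. The 45 estimates ran from -0.70 for ndhA to 0.48 for ndhJ on the log2 scale. Their 95% intervals were -1.59 to 0.20 and -0.22 to 1.17, and that of psbT was -2.09 to 0.75. Differences of more than 2-fold in single genes could therefore have been missed. With voom weights 0 genes of any kind passed. Without DMSO library 2, 6 plastid genes had an unadjusted p under 0.05, all with negative estimates (psbI, psbJ, psbT, ndhD, psaC and ndhA), and with no filter on low values 4 of 82 had. None of these passed after adjustment by limma in either fit, and the lowest adjusted p was 0.343 and 0.416.

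Pakerine was compared with DMSO in seedlings without stress. In this comparison 0 of the 45 plastid genes rose and 0 fell by limma, against 11.4% and 2.74% of all genes fitted. At an unadjusted p under 0.05 there were 3, all lower: rps14, psaA and clpP. Voom weights gave 0 plastid calls, against 957 higher and 219 lower of all genes fitted, and 4 plastid genes at that unadjusted p. The gene psaA had 13.0, 11.8 and 13.6 CPM in the Pakerine libraries, against 15.9, 20.1 and 15.7 CPM in the DMSO libraries. All Pakerine libraries lay below all DMSO libraries, and the difference was -0.42 ± 0.17 (SE), with a 95% interval of -0.78 to -0.06 (limma, adjusted p = 0.131). The gene rps14 had 6.21, 3.95 and 5.00 CPM in the Pakerine libraries, against 6.06, 8.50 and 6.18 CPM in the DMSO libraries. Pakerine library 1 lay within the range of DMSO, and the difference was -0.45 ± 0.17 (SE) (limma, adjusted p = 0.101). The libraries of psaB could be resolved here, with 19.2, 16.1 and 19.6 CPM in the Pakerine libraries, against 25.8, 28.2 and 24.0 CPM in the DMSO libraries, and they did not overlap. These values rest on the window of 1.5-fold around each mean, so that a wider spread would have been missed. Since psaB was not resolved in Stress, it was not part of the fit. The whole psaA unit had log2 ratios of -0.50 to -0.43 on the group means. None of the 50 plastid genes was 1.5-fold higher or lower, against 5.81% and 2.0% of all genes, nor 2-fold, against 2.82% and 0.472%. Libraries of both groups did not overlap in 2 genes that were lower and 1 that was higher in Pakerine, against 12.8% and 18.3% of all genes fitted. The median of the plastid genes was -0.04 on the group means, and 0.10 without DMSO library 2.

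Under stress, pakerine was compared with the solvent as Stress + Pakerine against Stress. By limma 0 plastid genes rose and 0 fell, against 11.6% and 1.62% of all genes, and 4 were lower at an unadjusted p under 0.05. Voom weights gave 0 plastid calls as well, against 1007 higher and 163 lower of all genes fitted. The 4 at an unadjusted p under 0.05 were rpl32, rps14, clpP and rps3. The gene rpl32 (ATCG01020) had 6.56, 3.92 and 3.48 CPM in the Stress + Pakerine libraries, against 9.15, 8.77 and 9.61 CPM in the Stress libraries. All libraries of Stress + Pakerine were below those of Stress. Its log2 difference was -1.02 ± 0.36 (SE), with an adjusted p of 0.0754 by limma. Without DMSO library 2, which enters this comparison only through the shared estimate of the spread, rpl32 passed with -1.02 (limma, adjusted p = 0.0446), as 1 plastid gene lower against 1.6% of all genes. The gene clpP had 6.03, 4.57 and 5.79 CPM in the Stress + Pakerine libraries, against 7.41, 6.18 and 9.05 CPM in the Stress libraries. The groups did not overlap, and the difference was -0.45 ± 0.15 (SE) (limma, adjusted p = 0.059). Under scaling by the median ratio over nuclear genes, clpP and rps14 passed with -0.53 and -0.57. Of all 8602 genes fitted, 361 were lower and 856 higher there. On the group means 2 plastid genes, rpl32 and psbT, were at least 1.5-fold lower and 0 higher, against 0.997% and 6.31% of all genes. None was 2-fold higher or lower, against 3.09% and 0.139% of all genes. In 8 of the 45 all libraries of Stress + Pakerine were below all of Stress, and in 1 above, against 7.67% and 20.0% of all genes fitted.

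Markers of root cells moved with pakerine. Of all genes, 6.31% were at least 1.5-fold higher with pakerine under stress and 5.81% without stress. The 4 of 4 root markers (PRP3, SHV2, AT2G38390 and AIR1) were so in both pakerine comparisons. They summed to 134 CPM in Stress + Pakerine against 20.4 CPM in Stress, and to 157 CPM in Pakerine against 26.4 CPM in DMSO, and none was at 0. Their part in the levels of plastid transcripts was not tested.

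Both treatments together were compared with DMSO, which shares libraries with the comparisons above. In Stress + Pakerine 11 of 45 plastid genes fell and 0 rose, against 22.7% and 22.8% of all genes fitted. There were 14 at an unadjusted p under 0.05. Voom weights also gave 0 higher and 11 lower, against 1957 and 1973 of all genes fitted. The lowest was rps3, with 3.28, 2.68 and 2.74 CPM in the Stress + Pakerine libraries, against 6.23, 6.0 and 4.81 CPM in the DMSO libraries. The groups did not overlap, and the difference was -0.94 ± 0.16 (SE) (limma, adjusted p = 0.000399). The gene clpP had 6.03, 4.57 and 5.79 CPM in the Stress + Pakerine libraries, against 10.3, 9.45 and 8.32 CPM in the DMSO libraries. The groups were apart, with a difference of -0.77 ± 0.15 (SE) (limma, adjusted p = 0.000824). The difference of clpP was -0.32 for Stress and -0.36 for Pakerine alone, and neither passed. The other 9 were psbK, rpl16, rpl14, rpl22, atpI, atpA, atpF, atpE and rpoB, with differences from -0.83 to -0.36. Without DMSO library 2, 10 fell and 1 rose, against 18.8% and 19.6% of all genes. The call of atpF was lost, with -0.37 (limma, adjusted p = 0.0743), and petB was higher with 0.50 (limma, adjusted p = 0.0314). On the group means 8 were at least 1.5-fold lower and 1 at least 1.5-fold higher, against 6.75% and 13.6% of all genes. None was 2-fold higher or lower, against 7.12% and 1.53% of all genes. In 13 of the 45 all libraries of Stress + Pakerine were below all of DMSO, and in 0 above, against 29.7% and 26.2% of all genes fitted.

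Since plastid genes shifted together between libraries, each was also set against the summed CPM of the 76 genes resolved without a window in the same library. The sum leaves out the 6 genes resolved with a window, atpA, rpoB, psbD, psaA, psaJ and psbB. It also leaves out the 5 not resolved in every group, psbA, psbC, psaB, atpB and rbcL. By group it averaged 137 to 167 CPM, against 504 to 517 CPM for all 87 plastid genes. On this scale 9 of 45 plastid genes were higher and 10 lower in Stress than in DMSO. Of all genes in that fit, 14.4% were higher and 26.2% lower. Only the plastid genes were rescaled, and all other genes kept their CPM. The shares over all genes given here are thus not on the scale of the plastid genes. The 9 were accD, cemA, petB, psaA, psbB, psbJ, psbT, rpl32 and rps14. The gene petB had a log2 difference of 0.50, psbB, an inner antenna protein of photosystem II, one of 0.32, and psaA one of 0.28. Among the 10 lower ones were rpl14, rpl16, rps3, atpA, atpI, rpoB, psbK, ndhJ and matK. In Stress + Pakerine against Pakerine 5 were higher (accD, petB, psaA, psaJ and rps14) and 3 lower (atpA, psbK and rps3), against 13.6% and 17.9% of all genes. In Pakerine against DMSO petB was higher with 0.30 and psaA lower with -0.34, against 11.4% and 2.76% of all genes. In Stress + Pakerine against Stress 1 gene, rpl32, was lower with -0.84, against 1.63% of all genes. In Stress + Pakerine against DMSO 8 were higher and 5 lower, against 23.0% and 22.7% of all genes.

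Genes of a polycistronic unit were set side by side, as far as they averaged at least 1 CPM. These were 4 of 5 genes in the atpA unit, 2 of 3 in the ndhC unit and 3 of 4 in the psbE unit. In the ndhH unit they were 3 of 7, and in the rpoB and psbD units 3 of 3. In Stress against DMSO on the group means, log2 ratios were -0.67 to -0.20 in the atpA unit, -0.89 to -0.50 in the rpoB unit and -0.62 to -0.45 in the ndhC unit, all below 0. They were 0.17 to 0.32 in the psbD unit and 0.24 to 0.37 in the ndhH unit, all above 0. In the psbE unit they spanned -0.05 to 0.37, which includes 0. In Stress + Pakerine against Pakerine the ndhH unit had -0.39 to -0.30, the opposite sign. None of these 3 genes passed in either comparison with all libraries in the fit. Without DMSO library 2, ndhD was higher in Stress than in DMSO with 0.59 (limma, adjusted p = 0.0359).

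The 37 genes below 1 CPM rested on few reads. The lowest, rps15, averaged 0.104 CPM over the groups. The gene psbM, a small subunit of photosystem II, had 11, 72 and 9 reads in the DMSO libraries, so that most reads behind its DMSO mean came from library 2. With genes below 1 CPM included, limma fitted 82 plastid genes, of which 12 fell and 0 rose in Stress against DMSO, where 20.1% of all 11826 genes fitted fell. In Stress + Pakerine against Pakerine 10 fell and 0 rose, where 13.3% of all genes fell.

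Nuclear genes of the same processes were not resolved in every group and have group means only. Of 33 nuclear subunits of the same complexes, 0 were 1.5-fold higher or lower in either stress comparison. Their median log2 ratios were 0.02 and -0.06. Of all genes, 9.6% were higher and 8.71% lower by that much in Stress against DMSO, and 9.28% and 5.83% with pakerine. Of 20 nuclear genes of the plastid transcription machinery, 2 were at least 1.5-fold higher and 1 at least 1.5-fold lower in both stress comparisons. The higher ones were the sigma factors SIG5 (AT5G24120, SIGE in the table), known to respond to light, and SIG1 (AT1G64860, SIGA in the table). SIG5 averaged 45.2 CPM in Stress against 11.2 CPM in DMSO, and 40.9 CPM in Stress + Pakerine against 9.13 CPM in Pakerine. SIG1 averaged 156 CPM in Stress against 76.6 CPM in DMSO, and 168 CPM in Stress + Pakerine against 90.3 CPM in Pakerine. The lower one was FLN1 (AT3G54090), a protein bound to the plastid polymerase, with 43.2 CPM in Stress against 79.0 CPM in DMSO. The phage-type polymerase SCA3 (AT2G24120) averaged 78.3 CPM in Stress against 102 CPM in DMSO.

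Genes of the mitochondrial chromosome were set beside those of the plastid. Of all genes fitted, 11.6% were higher and 1.62% lower in Stress + Pakerine against Stress, and 11.4% higher in Pakerine against DMSO. No plastid gene was called in either. Of 15 mitochondrial genes that could be fitted, limma called 8 higher and 0 lower in the first comparison, and 3 higher in the second. Their median log2 difference was 0.68 and 0.26, and that of the 45 plastid genes was -0.09 and -0.03. The difference between the organelles was not tested.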

How the data were processed

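RNA of 12 leaf samples was sequenced as single reads of 75 bases. Per the study's methods and the submitters' processing notes, the authors used Trim Galore 0.3.3 for trimming, TopHat2 2.1.0 for alignment against TAIR10 and featureCounts (Subread 1.4.6) for counting per gene, and kept genes above 0.12 CPM in at least 3 samples. The library kit, RNA selection and strand setting are not given in the sources used here. The deposited CPM values are the authors' means over the 3 libraries of each group, in counts per 1000000 counted reads. Fold changes, p-values and adjusted p-values of the authors' own comparisons stand beside them and were not used.

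Each mean was resolved into the whole reads of 3 libraries (largest mean without a window 10 CPM, window of 1.5-fold up to 100 CPM), in Python 3.11.15 with numpy 2.4.6 and pandas 2.3.3. The resolution and the fit were tested on simulated data. The fit recovered 31% of simulated 1.5-fold changes and 84% of 2-fold changes, with 4.96% of calls false. In the simulation genes varied independently, all with the same dispersion, and 200 were changed in Stress against DMSO alone. Plastid genes shifted together within libraries, so these rates may not hold for them. A count of 0 calls thus leaves room for changes of 1.5-fold, and for larger ones in genes of wide spread. In Stress + Pakerine against Stress, rpl32 did not pass with -1.02 ± 0.36 (SE). Libraries of a group differed by more than sampling noise, so none was counted as deposited more than once. Ratios of means used a pseudocount of 0.1 CPM and genes averaging at least 1 CPM. Log2(CPM + 0.1) of 8602 resolved genes was fitted with limma 3.58.1 (R 4.3.3, all 4 groups in one model, Benjamini-Hochberg adjustment, threshold 0.05). The design had assumed that means allow no test, and limma and its alternatives were added after seeing the data. A fold change on this scale understates the change of low genes.

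The members and gene lists were chosen with earlier results of these data known. All 87 genes were grouped by function and any could be named, with values in each library for those the results turn on. Alternatives were another pseudocount, no filter, scaling by nuclear genes or by the plastid sum, voom weights, low genes alone and leaving out each library. Values of single genes that are withheld are not reported here, while counts include them. Sequences and positions come from RefSeq TAIR10.1.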

Additional observations from a re-analysis of the deposited data

How the results depend on the processing

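Of 31 results in which limma called a plastid gene in some comparison, 12 were kept under every alternative run, and none changed direction: atpI, atpA, rpoB, rpl14 and rpl16 in Stress against DMSO, rps3 and atpA in Stress + Pakerine against Pakerine, and rps3, psbK, rpl14, rpl16 and clpP in Stress + Pakerine against DMSO. The causes of the changes below were not tested, except that fewer genes or libraries enter some fits.

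Without psbA the plastid share was 0.0343% in Stress + Pakerine, 0.0364% in Stress, 0.0366% in Pakerine and 0.0378% in DMSO. For counts at an unadjusted p, and for alternatives without a share given above, no share over all genes is given. The counts of genes 1.5-fold apart on the group means depend on the pseudocount and the filter. With a pseudocount of 1 CPM they were 0 higher and 3 lower in Stress against DMSO, 0 and 0 in Stress + Pakerine against Pakerine, 1 lower in Stress + Pakerine against Stress, and 0 higher and 4 lower in Stress + Pakerine against DMSO. With no pseudocount 5 were lower in Stress + Pakerine against Pakerine. With no filter on low values 15 were lower in Stress against DMSO, 3 higher and 5 lower in Stress + Pakerine against Pakerine, 1 higher and 3 lower in Pakerine against DMSO, 2 higher and 9 lower in Stress + Pakerine against Stress, and 16 lower in Stress + Pakerine against DMSO.

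By limma with no filter 0 plastid genes were higher in Stress against DMSO and 1 was lower in Stress + Pakerine against Stress, and that count was also 1 with genes of up to 10 CPM alone. Scaling by the median ratio over nuclear genes gave 2 higher and 6 lower in Stress against DMSO, 1 higher in Stress + Pakerine against Pakerine and 2 lower in Stress + Pakerine against Stress. Set against their own sum, 9 were higher in Stress against DMSO, 5 higher and 3 lower in Stress + Pakerine against Pakerine, 1 higher and 1 lower in Pakerine against DMSO, 1 lower in Stress + Pakerine against Stress, and 8 higher and 5 lower in Stress + Pakerine against DMSO. Over all genes the share of calls that were higher in Stress + Pakerine against Stress was 87.8%, and 70.3% under the median ratio.

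Leaving out each library in turn gave plastid shares of 0.0477% to 0.0526% in Stress + Pakerine and 0.0499% to 0.0532% in Stress. They were 0.050% to 0.0528% in Pakerine and 0.0475% to 0.0527% in DMSO. Genes not resolved in a group, psbA among them, kept their full group mean here and in the ratios of means below. The ranges can therefore understate how far the shares depend on a library. The median log2 ratio ranged over -0.26 to 0.04 in Stress against DMSO, -0.33 to -0.09 in Stress + Pakerine against Pakerine, -0.15 to 0.10 in Pakerine against DMSO, -0.20 to 0.02 in Stress + Pakerine against Stress and -0.32 to -0.01 in Stress + Pakerine against DMSO. In the same order, 0 to 6, 0 to 2, 0 to 2, 0 to 1 and 0 to 3 genes were 1.5-fold higher, and 6 to 12, 2 to 8, 0 to 3, 1 to 5 and 6 to 14 lower. By limma 0 to 7, 0 to 1, 0 to 0, 0 to 0 and 0 to 2 were higher, and 6 to 12, 4 to 8, 0 to 1, 0 to 1 and 8 to 14 lower. In Stress against DMSO 6 were lower without Stress library 1, Stress library 2 or DMSO library 2, and 0 higher without Stress library 3, DMSO library 1 or DMSO library 3. In Stress + Pakerine against Pakerine 4 were lower without Stress + Pakerine library 3 and 5 without Pakerine library 1.

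No paired analysis was possible because the libraries resolved from a mean carry no replicate number. The table holds no gene of the inverted repeat in 2 copies, so that leaving such copies out was not run. The depth of 15 to 796 reads per gene and library limits what can be detected, and 37 of the 87 genes lie below 1 CPM.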

Other observations

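The 14 tRNA rows were all counted at low levels, although the study's methods state that reads of tRNA and rRNA were not considered. A single row, ATCG00590, has no symbol in the table and was not matched to RefSeq.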
